A study of Mus musculus with 4 samples.

Results

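The N6-methyladenosine (m6A) peaks of control mouse pancreatic islets are described here, that is every entry of the control peak list: 10964 peaks of the 20375 that were deposited for both genotypes. Methylated RNA immunoprecipitation sequencing (MeRIP-seq) captures short RNA fragments with an m6A antibody (IP) and sequences them together with uncaptured fragments of the same RNA (input). The control mice were Wtapflox/flox, carried floxed Wtap with no deletion named for them in the labels, ate normal chow and were 7 weeks old. The labels give islets of 10 such mice as 1 pool of 2 µg total RNA in fragments of about 100 nt, captured for 2 h at 4 °C and read as 150 bp pairs. Strain and sex are not given in the sources used here. The control list therefore rests on 1 IP and 1 input library without a replicate. The other genotype, Wtap-βKO, was not used beyond the number of its peaks. No test between samples was possible. The 95% exact (Clopper-Pearson) intervals given below cover counting error over genes or peaks, and the number of reads behind each peak is unknown.

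m6A is placed on messenger RNA in the nucleus by a complex built around METTL3 and METTL14, to which WTAP and RBM15 belong, and reader proteins that bind it alter splicing, export, translation and decay. In mammalian messenger RNA the mark is known to gather in long internal exons, around the stop codon and in the 3′ untranslated region, most often at an A followed by C. Islets are small endocrine organs whose beta cells release insulin, alpha cells glucagon and delta cells somatostatin, beside endothelial, stromal and immune cells.

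A few stretches under peaks are shown with the core letters GGAC, part of the commonly methylated sequence, because RefSeq windows around gene starts (GRCm38.p6, 250 bases before to 50 after) are the gene sequence at hand. Of all peaks, 135 overlapped a window on their own strand and 101 overlapped a window of their own gene. The stretch under the peak reached 100 bases in 25 cases, and 17 of these stretches held GGAC on the transcript strand. The capitals mark GGAC in stretches under 6 peaks, which were chosen after their values were seen.
Ffar1: actcggcctcatGGACctgcccccacag
Txndc11: ctgcatgttgcaGGACcatatcccgggg
Tmem215: gaacccagactaGGACggtgcaccagct
Chgb: ccgtgcctgctgGGACcctgcgcaaggc
Pax6: atctacaaatagGGACggaaagggtcgt
Dnajb1: ggccatgggcaaGGACtactatcagacg
The Ffar1 stretch lies at chr7:30861453-30861480 on the minus strand, 2 bases after the annotated start counted to the first capital. Its peak is 240 nt long with a 3.18-fold enrichment, and Ffar1 encodes the fatty acid receptor through which fatty acids raise insulin release. The Chgb stretch, at chr2:132781490-132781517 on the plus strand, sits under a 120-nt peak of 7.37-fold in the gene of the granule protein chromogranin B. The Pax6 stretch, at chr2:105682226-105682253 on the plus strand, sits under a 241-nt peak of 1.87-fold in a gene of a transcription factor needed by all islet endocrine cells. The Txndc11 stretch lies at chr16:11088133-11088160 on the minus strand (peak of 570 nt, 5.12-fold). The Tmem215 stretch lies at chr4:40473085-40473112 on the plus strand (peak of 388 nt, 2.68-fold), and its window was covered over all 300 bases. The Dnajb1 stretch, in the gene of a heat shock co-chaperone, lies at chr8:83608328-83608355 on the plus strand (peak of 180 nt, 2.27-fold). Unlike in Ffar1, the first capital in the others lies before the annotated start of the window used. Its position is -218 in Txndc11, -33 in Tmem215, -140 in Chgb, -225 in Pax6 and -208 in Dnajb1.

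Among the whole windows behind the 25 stretches, 22 held GGAC (88.0%, interval 68.8 to 97.5%), against 65.6% of all 32817 windows. The whole windows also hold bases outside the peak. Of the covered stretches, which can be shorter than a window, 17 of 25 held GGAC (68.0%, 46.5 to 85.05%), and this interval includes 65.6%. The longer run GGACT occurred in 8 of the 25 windows (32.0%, 14.9 to 53.5%) and in 26.1% of all windows, and in 3 of the 25 covered stretches. Per kilobase, GGAC matched 6.44 times in the covered stretches and 3.82 times over all windows, while GGACT matched 0.954 and 1.03 times. Matches were counted on the transcript strand alone, each GGACT is also a GGAC, and they describe letters, not methylated sites.

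Peaks also lay over 8 miRNA genes on the same strand, out of 1005 hairpins in the RefSeq table. Their 11 mature arms under a peak had 11 distinct seeds, so none shared a seed. The arms within Dgcr8 and Rcan3 are shown because Dgcr8 encodes the partner of Drosha that cuts such hairpins from longer transcripts, and the Rcan3 peak had the highest −log10 q of the 8 hosts. Capitals mark the seed, bases 2 to 8.
miR-1306-3p: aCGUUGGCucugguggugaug
miR-1306-5p: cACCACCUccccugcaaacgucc
miR-700-3p: cACGCGGGaaccgaguccacc
Both miR-1306 arms, at chr16:18284248-18284268 and chr16:18284288-18284310 on the minus strand, lay whole under a 240-nt Dgcr8 peak of 2.63-fold with a −log10 q of 4.88. miR-700-3p, at chr4:135416561-135416581 on the minus strand, lay whole under a Rcan3 peak of 569 exonic nt, 4.09-fold and a −log10 q of 43.1. At these genes a peak over the hairpin cannot be told apart from a peak of the host transcript.

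The 10964 peaks fell in 6250 genes, and most of these genes had a single peak. A single peak was found in 3734 genes (59.7%, 58.5 to 61.0%), 2 peaks in 1440 (23.04%), 3 in 565 (9.04%) and 4 or more in 511 (8.18%, 7.51 to 8.88%). The 511 genes held 24.2% of all peaks, and 23 genes held 10 or more. The single-peak genes, for comparison, held 34.1% of all peaks. Per gene, peaks covered a median of 330 exonic nt, with quartiles of 181 and 629 nt, and the most was 12033 nt.

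**Figure D1:**
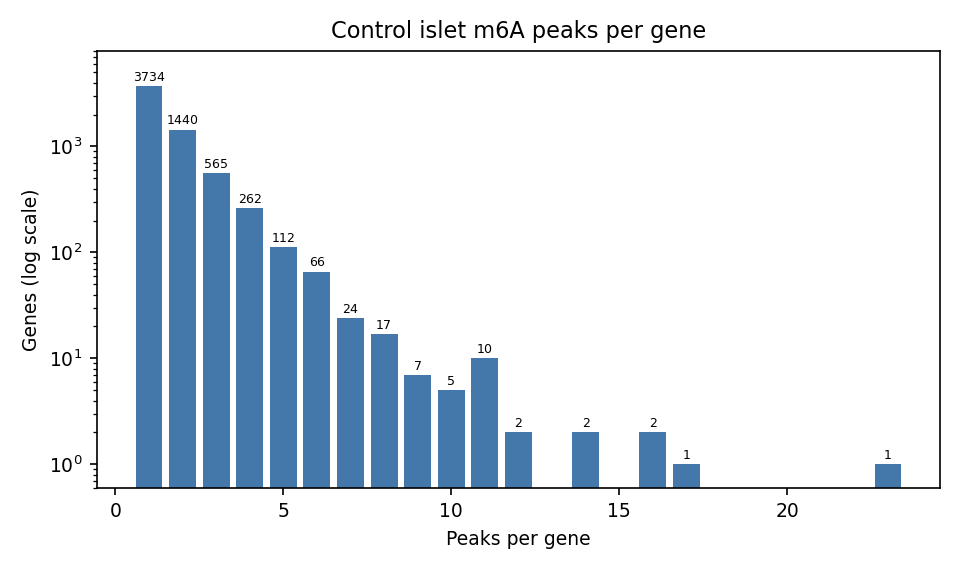
Number of genes (log axis) with each number of control peaks (horizontal axis), with the gene count above each bar. There were 3734 genes with 1 peak and 511 with 4 or more, and the highest, Dst, had 23.

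The gene with the most peaks was Dst, which encodes the cytoskeletal linker dystonin and had 23 peaks over 7432 exonic nt on chromosome 1. Their folds ran from 1.49 to 14.7 with a median of 3.37, their lengths from 121 to 720 nt, and 7 of them crossed an exon junction. The Dst peaks were not at its end: 2 of the 23 lay within 2000 bp of the 3′ end, and the one with the best q (720 nt, 7.42-fold, −log10 q 46.8) lay 70802 bp from it.

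Genes of histone H3 lysine 4 methyltransferases were among the 18 with 11 or more peaks. Kmt2d had 17 peaks over 5860 nt (median 3.39-fold), Kmt2a 16 over 6311 nt (median 2.83-fold) and Kmt2c 11 over 4806 nt (median 3.36-fold). Ash1l, which encodes a methyltransferase of another histone lysine, had 11 peaks over 4835 nt. Spen, whose protein is an RNA-binding co-repressor, had 16 peaks over 5049 nt with folds of 2.11 to 7.90. Fat1, an atypical cadherin, and Plec, the linker plectin, had 14 each.

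Cep350, of the centrosome, and Zfhx3, a zinc finger homeobox factor, had 12 peaks each. A further 10 genes had 11: Akap9, Apc, Ash1l, Bsn, Kmt2c, Macf1, Map2, Pclo, Zdbf2 and Zfhx2. Among them Pclo and Bsn encode the active-zone scaffolds piccolo and bassoon, which endocrine cells also make. Pclo stood out by length: its 11 peaks summed to 12033 nt, the most of any gene, with a median of 810 nt and a median −log10 q of 31.3, while those of Bsn summed to 2467 nt with a median of 210 nt and 3.22. Of the Pclo peaks, 4 overlapped a listed peak on the opposite strand. The 18 genes ranged from 2374 nt (Map2) to 12033 nt, and their median folds from 2.83 (Kmt2a) to 6.24 (Bsn).

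Peaks were short. Exonic length, the sum of a peak's exon blocks, had a median of 211 nt with quartiles of 151 and 360 nt, a minimum of 101 nt and a maximum of 3779 nt. Under 200 nt were 39.99% of peaks, 8.38% (7.87 to 8.92%) reached 600 nt, and 2.16% reached 1000 nt. Lengths were not continuous, since 90.7% lay within 1 nt of a multiple of 30, and 151 nt (806 peaks) and 121 nt (804 peaks) were the commonest. Differences in length below that spacing cannot be read.

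Longer peaks had better q. With the peaks in 5 equal classes by −log10 q, from lowest to highest, the median length was 150, 180, 211, 300 and 478 nt, while the median fold was 4.21, 4.08, 3.55, 3.79 and 4.31. Length rose through the 5 classes and fold did not. Length and q come from the same peak call, and how far one sets the other was not tested. Peaks of genes with 4 or more peaks had a median length of 270 nt and fold of 3.55, and those of single-peak genes 210 nt and 4.41.

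**Figure D2:**
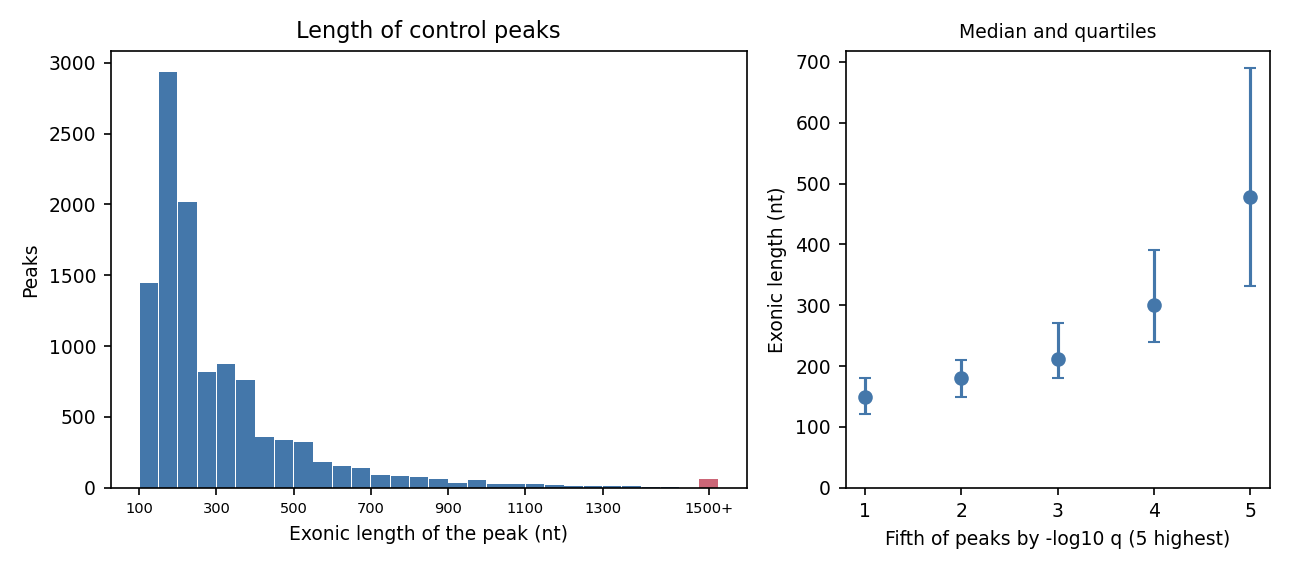
Left, number of peaks by exonic length in 50-nt bins, with peaks of 1500 nt or more in the last bar. Right, median length (points) and quartiles (bars) in each of 5 classes by −log10 q, where the median rose from 150 to 478 nt.

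The longest peaks lay within single exon blocks. Muc4, which encodes a membrane mucin, had a pair among them, of 3779 nt (4.79-fold, the longest) and 2611 nt (3.06-fold), 30215 bp and 26901 bp from its 3′ end. Srcap, a chromatin remodelling ATPase, had one of 2726 nt at 8.07-fold, and the peak of 2700 nt that the list gives to Gm42715 covers the same place on the same strand. Lrrn1 (2596 nt), the Golgi protein gene Golgb1 (2577 nt), Phf3 (2281 nt), Amigo2 (2239 nt) and Arhgap5 (2220 nt) followed, with an unnamed identifier on chromosome 15 (3260 nt). Their −log10 q lay between 22.6 and 46.4.

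Most peaks, 88.3%, were a single exon block. Junctions were crossed by 1281 peaks (11.7%, 11.1 to 12.3%): 1058 had 2 blocks, 174 had 3 and 49 had 4 or more. Dctn1, of the dynactin motor complex, had the most with 7 blocks in 1081 nt (5.15-fold), followed by the kinase gene Taok2 with 6 blocks in 1708 nt (7.41-fold). The 8 peaks of 5 blocks were in Gm10800, the granule protein gene Scg3, Os9, P4hb, Tle3, Hnrnpu, Chd4 and Mia3. Os9, P4hb and Mia3, whose proteins act in the endoplasmic reticulum, had folds of 4.29, 1.51 and 2.97, and Tle3, Hnrnpu and Chd4, whose proteins are nuclear, 3.16, 2.02 and 3. Peaks over a junction had a median of 241 nt and the others 211 nt.

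In genes with several peaks, neighbours were close. The genomic gap between successive peaks of a gene had a median of 809 bp over 4714 gaps, 53.0% were under 1000 bp and 20.1% under 200 bp. Gaps over 10000 bp made up 21.6%, and these can hold introns.

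Peaks lay toward the 3′ ends of genes. For 9989 peaks the midpoint fell inside the RefSeq span of the same gene, and 43.1% of them (42.1 to 44.1%) lay in the last 10% of that span, which includes introns. The first 10% held 5.60% (5.15 to 6.07%), and the second, the emptiest, 3.40%. The share then rose steadily, to 14.9% in the stretch before the last. The first 10% therefore stood above the second, and their intervals did not overlap. Peaks are exonic, and the share of exonic bases in each stretch was not computed. The place of peaks therefore cannot be told apart from the layout of exons, here or in the distances below.

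In absolute distance, 34.3% (33.4 to 35.3%) lay within 2000 bp of the 3′ end and 9.31% (8.75 to 9.90%) within 2000 bp of the 5′ end. The closest 200 bp held 2.81% at the 3′ end and 0.831% at the 5′ end. Near the 3′ end the fullest bins were set back from the end itself, as the plot of distances shows. In genes of 20000 bp or more, the shares within 2000 bp were 25.3% and 3.83%. Peaks within 500 bp of the 5′ end had a median of 180 nt, 3.69-fold and a −log10 q of 3.76, and those within 500 bp of the 3′ end 210 nt, 3.73-fold and 4.59.

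Of single peaks, 50.1% (48.3 to 51.8%) lay within 2000 bp of the 3′ end, against 15.4% (13.98 to 16.8%) of the peaks in genes with 4 or more. Counted by gene, the share with at least 1 peak there was 50.1% for single-peak genes, 54.3% for genes with 2 or 3 and 52.0% (47.5 to 56.5%) for those with 4 or more. The intervals of the first and last overlapped. At least 1 peak in the last 10% of the span was found in 49.5%, 61.9% and 77.7% of these genes in turn. A gene with more peaks has more occasions for one there, so this rise does not place its peaks nearer the end. Counted by peak, 49.5% of single peaks lay in the last 10%, and 37.75% (35.9 to 39.7%) of those in genes with 4 or more. Over all 5538 placed genes, 51.7% had a peak within 2000 bp of the 3′ end.

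**Figure D3:**
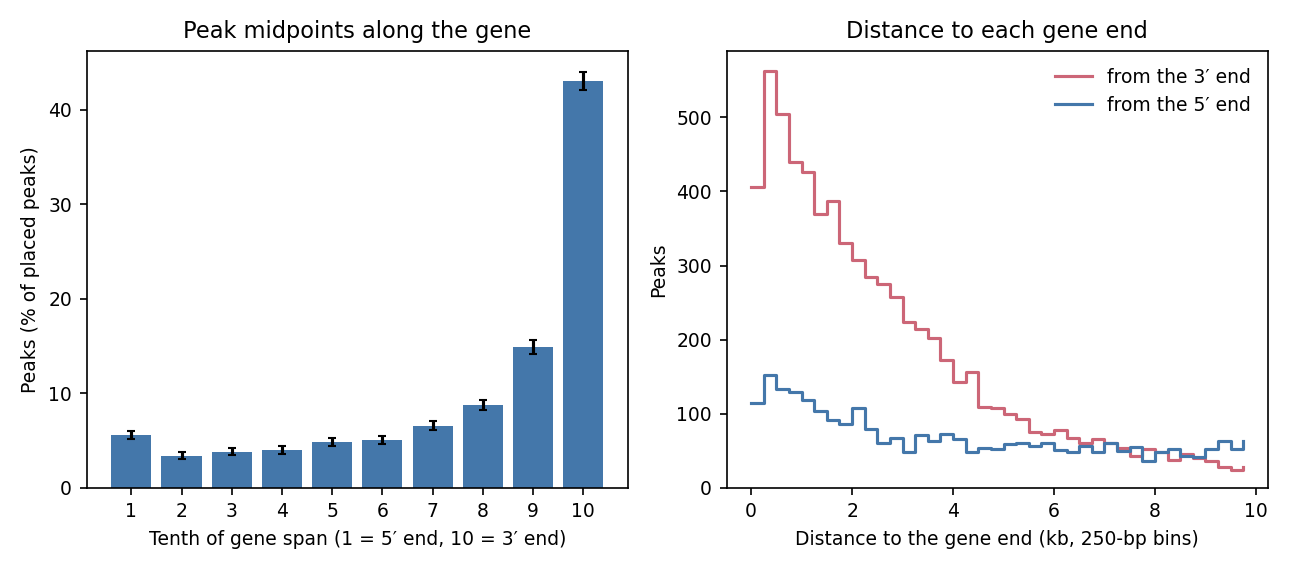
Left, share of the 9989 placed peaks in each of 10 equal stretches of the gene span, 5′ to 3′, with 95% exact intervals; the last held 43.1%. Right, number of peaks per 250 bp of distance from the 3′ end and from the 5′ end of the gene.

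Both strands were covered alike. The plus strand held 5518 peaks (50.3%, 49.4 to 51.3%) and 3158 genes (50.5%, 49.3 to 51.8%), and both intervals include an even split.

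The 5556 covered protein-coding genes were 25.4% of the 21900 in RefSeq, which is the background for every share of genes below. A gene without a peak may be unmethylated, not expressed or too low for a peak; the expression level of each gene was not measured here, and its part in these shares was not tested. In RNA from whole islets, fewer cells of a type and less RNA per cell cannot be told apart. Span moved with coverage. In 10 equal classes by span, 3.29% of the shortest genes (median 942 bp) had a peak, 25.5% of class 5, 40.5% (38.4 to 42.6%) of class 9 and 37.5% (35.5 to 39.6%) of the longest (median 184828 bp). Mean peaks per covered gene went from 1.14 in the shortest class to 2.45 in the longest.

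Chromosome 18 had the highest share, 165 of 511 genes (32.3%, 28.3 to 36.5%), followed by chromosome 8 with 29.9% and chromosome 5 with 29.8%. Chromosome 7 was the lowest autosome with 399 of 2030 (19.7%, 17.95 to 21.5%), then chromosome 14 with 21.0% (18.3 to 23.9%). Chromosome 7 carries 417 of the olfactory and vomeronasal receptor genes, none of which had a peak. Without such receptor genes its share was 24.7% (22.7 to 26.9%), chromosome 14 became the lowest autosome with 22.1% (19.3 to 25.1%), and chromosome 2, which carries 287, went from 25.3% to 30.1%.

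The sex chromosomes were below every autosome. On X, 161 of 966 genes had a peak (16.7%, 14.4 to 19.2%), and 16.8% without receptor genes, and its interval overlapped those of chromosomes 7 and 14. On Y, 1 of 256 genes had one: Uty, a relative of the X-linked demethylase gene Kdm6a, with a 211-nt peak of 3.19-fold. By peaks per Mb of summed gene span the order was another, with chromosome 11 highest at 14.3 and chromosome 14 lowest among autosomes at 7.56. Among autosomes, mean peaks per covered gene ranged from 1.64 on chromosome 6 to 1.98 on chromosome 16, with 1.76 on X.

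**Figure D4:**
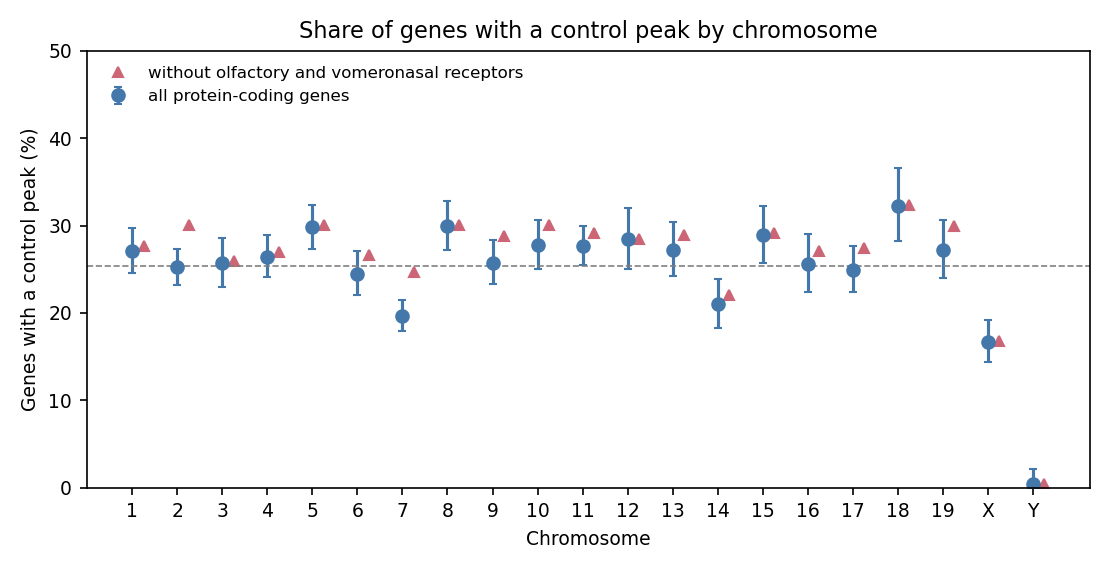
Share of protein-coding genes with a control peak on each chromosome (circles, with 95% exact intervals) and the share without olfactory and vomeronasal receptor genes (triangles); the dashed line is 25.4%. Chromosome 18 is highest, and X (16.7%) and Y are lowest.

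Families were formed by the letters that open a gene symbol, for 102 such groups of at least 20 protein-coding genes. The intervals of 23 groups lay wholly above 25.4% and those of 26 wholly below. Together 1339 of their 6156 genes had a peak (21.8%), against 26.8% of the genes outside them. Groups such as Tmem, Fam and Ccdc share a name and no single function. Across the 102 groups, Spearman's rho between the share covered and the median gene span was 0.58, given as a description.

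The most covered group was Zbtb. It holds zinc finger proteins with a BTB domain and had 31 of 41 genes covered (75.6%, 59.7 to 87.6%). Zbtb20, a repressor expressed in beta cells, had 9 peaks over 3608 nt at folds of 2.42 to 11.6, Zbtb38 had 6 over 1651 nt and Zbtb7a 4 over 1024 nt. None of the 73 Zbtb peaks crossed a junction, and 18.8% lay near the 3′ end. Zfp, the large zinc finger group, had 219 of 397 covered (55.2%, 50.1 to 60.1%) with 452 peaks. Its median fold of 5.48 stood beside 3.95 for all peaks. Folds of 8 or more often repeat on a fixed step, as described below. Without peaks on that step, 164 of the 219 Zfp genes stayed covered, and 5444 of the 6250 genes of the list. The part of such peaks in the Zfp median was not tested. Zfp292 had 10 peaks over 4118 nt, and Zfp646 and Zfp738 had 7 each over 2130 and 1326 nt.

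Phf, proteins with a plant homeodomain that reads histone tails, had 11 of 22 covered (interval 28.2 to 71.8%). Phf3 had 3 peaks over 3303 nt, Phf20l1 5 over 1203 nt and Phf2 4 over 691 nt. Of Usp deubiquitinases 29 of 56 were covered (51.8%, 38.03 to 65.3%), and Usp9x had 4 peaks, the best with a −log10 q of 63.4. Usp29 and Usp8 had 4 peaks each, and 2 of the Usp29 peaks overlapped a peak on the other strand. Rnf, RING finger proteins that are mostly ubiquitin ligases, had 42 of 83 (50.6%, 39.4 to 61.8%), with 6 peaks in Rnf213, 4 in Rnf139 and 3 in Rnf185. Among other ubiquitin-related groups, Fbxo stood at 41.7% (25.5 to 59.2%) and Ube at 38.1% (23.6 to 54.4%). Both intervals overlap those of Usp and Rnf. Trim stood at 25% (15.3 to 37.0%) and Fbxw at 16.7% (4.74 to 37.4%). The intervals of Ube, Trim and Fbxw include the background of 25.4%.

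Tbc, which is nearly all Rab GTPase-activating proteins, had 18 of 30 covered (60.0%, 40.6 to 77.3%). Tbc1d16 had 4 peaks over 1141 nt, Tbc1d1, which regulates glucose transporter traffic, 3 over 1143 nt and Tbc1d30 3 over 542 nt. Rab, the small GTPases of vesicle traffic with some of their binding partners, had 34 of 69 (49.3%, 37.0 to 61.6%) but at most 2 peaks a gene. Rab3d and Rab8a, which act on secretory vesicles, had 2 each, at 1.83 to 2.46-fold and 2.11 to 2.77-fold, and so did Rab11fip3, which encodes a Rab11 binding partner. Near the 3′ end lay 55.0% of the Rab peaks.

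Dusp, a group that includes phosphatases that switch off MAP kinases, had 13 of 24 (54.2%, 32.8 to 74.4%). Dusp7 had 3 peaks, and Dusp1 and Dusp3 had 2 each. Kctd, adaptors with a BTB-like domain, had 12 of 22 (54.5%, 32.2 to 75.6%), led by Kctd12b with 3 peaks over 1439 nt and by Kctd20 and Kctd21 with 2. Rbm, RNA-binding motif proteins, had 19 of 38 (interval 33.4 to 66.6%). A pair of its leading genes encodes parts of the m6A writer complex itself. Rbm15 had 3 peaks over 1949 nt, the best 1378 nt long at 8.74-fold, and Rbm15b had 5 over 1614 nt at 2.66 to 4.00-fold. Rbm4b had 4, of which 2 overlapped a peak on the opposite strand.

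**Figure D5:**
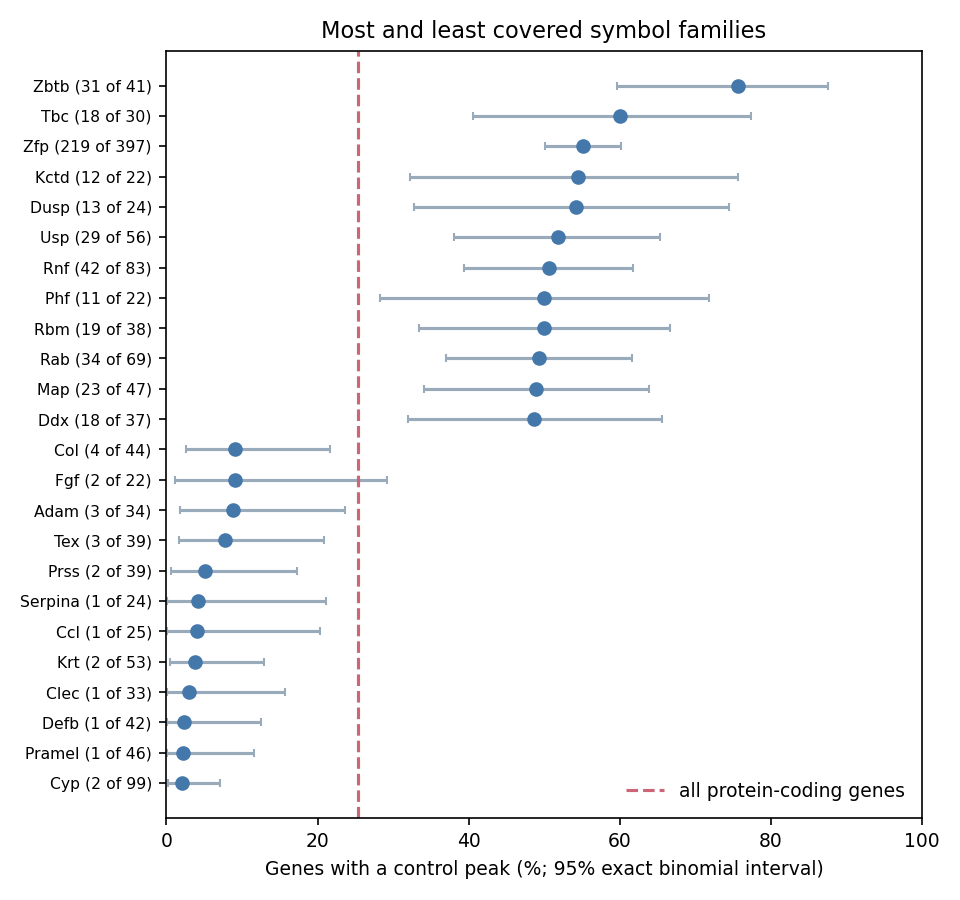
Share of genes with a control peak in the 12 most covered symbol groups and the 12 least covered that had at least 1 covered gene, with 95% exact intervals and gene counts; the dashed line is 25.4% of all protein-coding genes. Zbtb is highest at 75.6% and Cyp lowest at 2.02%.

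At the other end, 15 groups with 1849 genes had no covered gene. Olfactory receptors (0 of 1110, interval up to 0.332%) and vomeronasal receptors (0 of 355, up to 1.03%) made up most of them. The others were Defa, Hsd, Klk, Krtap, Lce, Mmp, Mup, Prl, Rhox, Scgb, Serpinb, Sult and Tas. Many of these are single-exon or short genes known from other tissues: the median span was 950 bp in Olfr and 833 bp in Krtap. Sult, with a median span of 28456 bp, and Hsd, with 18574 bp, were not short.

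Among groups with a covered gene, Cyp was lowest with 2 of 99 (2.02%, 0.246 to 7.11%). These cytochrome P450 genes, with a median span of 22495 bp, had single peaks in Cyp2u1 (14.7-fold) and Cyp2j6 (7.37-fold), with a −log10 q of 2.36 and 2.01. Both lie close to the q threshold. Next came Pramel with 1 of 46 (Pramef8), Defb with 1 of 42 (Defb1), Clec with 1 of 33 (Clec14a), Ccl with 1 of 25 (Ccl28) and Serpina with 1 of 24. The exception in strength was Serpina10, with a 629-nt peak of 4.65-fold and a −log10 q of 19.2.

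Krt had 2 of 53 (3.77%, 0.460 to 12.98%), and both belong together: Krt8 and Krt18 encode the keratin pair of simple epithelia, with 1 and 2 peaks at 2.27 to 3.16-fold. Prss had 2 of 39 (Prss23 and Prss8), Tex 3 of 39 (Tex2, Tex10 and Tex264) and Adam 3 of 34 (8.82%, 1.86 to 23.7%). The Adam genes were Adam10 (16.9-fold), Adam17 (8.95-fold) and Adam1a (17.9-fold). The Adam10 and Adam1a peaks, with a −log10 q of 3.36 and 3.12, lie on the repeated fold step described below. Adam10 and Adam17 encode the broadly expressed sheddases of the group.

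A few families named by function, whose list was drawn up with earlier results known, gave the same kind of contrast. All 8 lysine methyltransferases with a Kmt symbol were covered, with 58 peaks, and so were 13 of 18 Kdm demethylases (72.2%, 46.5 to 90.3%) and 12 of 17 Klf factors (70.6%, 44.0 to 89.7%). Klf9 and Klf4 had 4 peaks each. Hox genes, in contrast, had 0 of 39 (up to 9.03%). Sox factors had 2 of 19, Sox18 and Sox4 (10.5%, 1.301 to 33.1%), and this interval includes the background of 25.4%. Fox factors stood at the background with 11 of 44 (13.2 to 40.3%), among them Foxo1, a regulator of beta cell growth and identity, with 2 peaks over 1411 nt, and Foxo3 with 4 over 1799 nt.

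Cytosolic ribosomal protein genes, short and highly expressed in most cells, had 13 of 88 covered (14.8%, 8.11 to 23.9%), each with a single peak. Rpl41 had 1.60-fold with a −log10 q of 59.3. Such genes have many processed copies in the genome, and how reads were divided among them is not given in the sources used here. Mitochondrial ribosomal proteins had 22 of 78 (28.2%, 18.6 to 39.5%), complex I subunits 8 of 49 (16.3%, 7.32 to 29.7%) and proteasome subunits 13 of 51 (25.5%, 14.3 to 39.6%).

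Among membrane proteins, potassium channel genes had 20 of 94 covered (21.3%, 13.5 to 30.9%), among them a gene known in beta cells. Kcnj11, the pore of the ATP-sensitive channel, had 5 peaks over 2150 nt with a best −log10 q of 30.7. Calcium channel genes had 6 of 26 (23.1%, 8.97 to 43.7%), among them Cacna1d, a voltage-gated pore, with 2 peaks. Solute carriers had 101 of 389 (26.0%, 21.7 to 30.6%), close to the background, and Slc24a2 and Slc7a14 had 5 peaks each. Interleukin symbols had 6 of 83 (7.23%, 2.70 to 15.1%), and none of the 6 encodes an interleukin: Il1r1 (5 peaks, best −log10 q 72.2), Il6ra, Il6st, Il17ra and Il10rb encode receptor chains and Il4i1 an enzyme.

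Protein domains were read from the annotation column of the list. C2H2 zinc fingers were annotated in 377 of 5662 named gene identifiers (6.66%). They stood at 12.6% (9.84 to 15.9%) of the 499 with 4 or more peaks and at 4.83% (4.12 to 5.62%) of the 3252 with 1. The FYVE/PHD finger stood at 5.21% (3.43 to 7.54%) and 0.892% (0.598 to 1.28%), and the homeobox-like domain at 3.21% (1.84 to 5.16%) and 0.738% (0.473 to 1.10%). The KRAB box, the repressor domain of many zinc finger proteins, differed little, at 2.20% (1.11 to 3.91%) and 2.52% (2.01 to 3.12%). Gene length was not separated from domain content here, and its part was not tested.

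Beta cell markers were covered more often than exocrine ones. Of 15 beta cell markers 13 had a peak, of 8 alpha markers 5, of 3 delta markers 1 and of 2 PP markers 1. Acinar markers had 2 of 9 and ductal markers 0 of 5. Over all protein-coding genes the share was 25.4%, and the acinar list was near it. The delta and PP lists are too short to be set beside it. The alpha list is short too, and no interval was computed for any marker list. High coverage was not particular to endocrine lists, since the endothelial list had 7 of 8. Pdx1, which sets beta cell identity, had 2 peaks over 1440 nt at 2.48 and 5.55-fold, and Nkx6-1 had 3 over 1795 nt. Mafa, an activator of insulin transcription, had 2 peaks of 180 and 685 nt, the better at 3.30-fold with a −log10 q of 125. Neurod1 had 2 over 1740 nt, with 3.45-fold and a −log10 q of 265 at the better.

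Nkx2-2 had 4 peaks over 1525 nt at 1.65 to 3.37-fold. The glucose-handling genes followed: the transporter gene Slc2a2 had 2 (1.64 and 2.38-fold) and G6pc2 1 of 898 nt (2.42-fold). The zinc transporter gene Slc30a8, the peptide gene Ucn3 and the convertase gene Pcsk1 had 2 peaks each. The receptor gene Glp1r had 1 of 178 nt at 1.73-fold. Its midpoint was 0.0885 kb from the 3′ end.

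Hormone transcripts had peaks of low fold and very good q. Ins1 had 2 peaks, of 1.15 and 1.43-fold, with a −log10 q of 305 and 21.6, and the former is the lowest fold of the whole list. Gcg (glucagon) had 1.36 and 1.41-fold, the first with a q listed as 0. Sst (somatostatin) had 1.54-fold with a −log10 q of 110, and Ppy (pancreatic polypeptide) 1.53-fold with 137. All peaks of the 4 hormone genes lie below the 1.88-fold that marks the lowest 5% of peaks. Ins2 and Iapp had no listed peak, and since Ins1 and Ins2 are near-identical copies, the assignment between them is uncertain.

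The alpha cell factor genes Irx1 and Irx2 had higher folds than Gcg. Irx2 had 2 peaks (4.56 and 5.08-fold), Irx1 2 (2.56 and 2.63-fold) and the convertase gene Pcsk2 5 (1.34 to 3.11-fold). Those without a peak included Ttr and Pou3f4, and for the delta and PP lists Hhex, Rbp4 and Pyy. Of 8 endothelial markers 7 had a peak, led by Plvap, the diaphragm protein of fenestrated vessels (2 peaks, the better 5.51-fold with a −log10 q of 52.4), and Flt1 with 4. Pecam1, Cdh5, Kdr, Tie1 and Esm1 made up the rest, and Tek had none.

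Stromal markers had 1 of 6 (Pdgfrb, 22.1-fold in a 180-nt peak with a −log10 q of 4.18) and immune markers 2 of 6 (C1qa and C1qb). The acinar genes were Bhlha15, a factor of secretory cells, with 2 peaks (4.00 and 4.21-fold), and Cpa1, with 1 of 1.54-fold and a −log10 q of 2.36. The defining enzyme genes Prss2, Try4, Cela1, Ctrb1, Pnlip and Amy2a5 had no peak, which does not give their level in the RNA.

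Fold enrichment over the whole list had a median of 3.95 with quartiles of 2.84 and 6.21 and a range of 1.15 to 62.1. The −log10 q had a median of 4.72 and quartiles of 3.02 and 9.28, and 13 peaks had a q listed as 0. Genes with a q listed as 0 included Scg2, Chga, G6pc2, Gcg, several mitochondrial genes and Gm10800. Gm10800 is a predicted gene on chromosome 2 (peak of 660 nt in 5 blocks, 2.73-fold). The granin genes Scg2 and Chga had 2 peaks of 749 and 1018 nt at 2.37 and 3.02-fold, and 1 of 1169 nt over 4 blocks at 2.54-fold. Chgb had 2, of which the better had 1728 nt, 3.15-fold and a −log10 q of 251. Egr1, an immediate early factor, had 2 peaks (the better 1705 nt, 2.71-fold, −log10 q 286), and Hspa5, the chaperone of the endoplasmic reticulum, 2 (the better 2.92-fold, −log10 q 255).

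Mitochondrial transcripts, made in the organelle and not by the nuclear machinery, had 9 peaks in 7 genes. mt-Nd4 had 1 peak of 869 nt at 26.3-fold, and mt-Co1 had 2, at 1.41-fold (238 nt) and 16.9-fold (209 nt). The other 6 lay between 1.56-fold in mt-Nd1 and 2.70-fold in mt-Nd5, with mt-Nd2 at 2.21, mt-Cytb at 1.90 and mt-Nd6 at 2.69-fold. The mt-Nd6 peak lies on the opposite strand to a mt-Nd5 peak and overlaps it by position.

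The highest folds among peaks with a q at or better than the median were in Trim44 (62.1-fold, 569 nt over 2 blocks, −log10 q 22.4), Tigar (47.4-fold), Rusc2 (43.2-fold), Pld1 (37.9-fold) and Tsc22d2 (36.9-fold). These folds were not continuous measurements. Of the 275 peaks of at least 20-fold, 272 (98.9%) lay on whole multiples of 1.0535, within 0.06. Counting from 8-fold, with a tolerance of 0.006 below 10-fold, 1504 peaks (13.7% of the list) lay on that step. All 5 of the peaks above were among them, as were those of mt-Nd4, Pdgfrb, Cyp2u1, Adam10 and Adam1a. Differences between such folds smaller than a step cannot be read.

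Some peaks could not be given to 1 gene. On the same strand, 419 peaks (3.82%, 3.47 to 4.20%) overlapped another listed peak, in 226 pairs, of which 88 were within 1 gene identifier. On opposite strands, 507 peaks (4.62%, 4.24 to 5.03%) overlapped in 263 pairs, and in 18 of these both peaks had the same fold and the same q. Whether reads were counted by strand is not given in the sources used here, so such pairs cannot be told apart.

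A further 742 peaks (6.77%, 6.30 to 7.25%), with 588 identifiers, had no gene name. Their median length was 181 nt and their median fold 3.77. By midpoint, 47.3% lay within a protein-coding RefSeq span, 41.0% within a pseudogene, 27.0% within a lncRNA and 5.12% in none, and a midpoint can lie in several. Of these peaks 22.1% (19.2 to 25.3%) overlapped a peak on the opposite strand, against 4.62% of all peaks.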

How the data were processed

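Per the submitters' processing notes, the authors used fastp 0.19.11, BWA 0.7.12 and HOMER 4.9.1 on GRCm38 (mm10), and per the labels' series text exomePeak 2.16.0 at a q of 0.05. The deposited control list gives each peak's p-value, log10 p and log10 q (unbounded score columns), and the fold enrichment, the authors' ratio of IP over input. Fold and q are the authors' own and served only to describe, rank and filter. Depth and annotation release are not given in the sources used here. Starts were read as 0-based and are printed 1-based.

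Exonic length is the sum of a peak's blocks. Gene names were matched to RefSeq (GRCm38.p6) by symbol (5487) or synonym (101): 5588 of 5659 names with 10125 peaks. Mitochondrial genes are named differently there and stayed out of gene shares. Overlap meant at least 1 bp of exon block. Symbol groups are the leading letters (at least 3) of protein-coding symbols. Intervals are exact Clopper-Pearson, in Python 3.11.15 with SciPy 1.17.1. The overlap and step searches were tested on simulated data. Named genes are the 15 with most peaks with ties, the 10 longest peaks, the 15 best q, the 5 highest folds in the better 50% by q, the 5 peaks of most blocks with ties, 3 genes in each of the 10 most and 10 least covered groups, the cell type markers and genes with printed sequences. Other genes of functional families were named after their values were seen. Members, families and lists were chosen with earlier results of these data known. A few named genes were left out of the text. The alternatives are given in the closing section.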

Additional observations from a re-analysis of the deposited data

How the results depend on the processing

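Of 59 alternative values for 12 results, 44 stayed within the interval of the reported share or within 1.5 times the count, median or ratio. The share of genes with 1 peak (59.7%) was 63.8% at a q of 0.001 or less, 61.2% at a fold of at least 2 and 57.4% without unnamed peaks. The share with 4 or more peaks (8.18%) was 6.88% at the q of 0.001 and 7.4% at 2-fold. Peaks over a junction (11.7%) were 12.7% at the q of 0.001 and 12.4% without peaks on the fold step, and peaks of 600 nt or more (8.38%) 11.2% and 9.22%. A window of 1000 or 500 bp in place of 2000 bp held 19.2% or 9.70% of peaks (34.3%), by its construction. Overlap with a peak on the opposite strand (4.62%) replaced 3.82% on the same strand. The pooled share over symbol groups (21.8%) was 17.3% at the q of 0.001, 9.21% when 2 peaks were asked for and 18.8% without the fold step. The cause was not tested in the others. Of the 10 most covered groups, 6 to 8 remained under each setting: Zbtb stayed first, Tbc, Usp and Rbm also remained in all, Kctd, Rnf and Rab dropped out in 4 settings each, and Zfp (55.2%) at the q of 0.001 (40.1%) and without the fold step (41.3%). The chromosome ratio (highest over lowest autosome, 1.64) was 1.46 to 1.89. The settings without receptor genes and without opposite-strand overlaps were chosen after seeing the data.

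No paired analysis was possible because there was 1 control IP and 1 control input library, so no replicate was left out. Without read counts, peaks in transcripts of low abundance cannot be told from absent methylation. Transcript regions were not analysed here.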
